A study of Mus musculus with 48 samples.

Results

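The interleukin-1 (IL-1) family of mouse epidermis was followed through 9 genes over a day. The members were the rows of the deposited count table that carry the Entrez IDs of Il1a, Il1b, Il1rn, Il18, Il33, Il1r1, Il1r2, Il1rl2 and Il1rap, that is 9 of 27179 gene IDs. All 9 passed the low-count filter, which left 17068 genes for testing. Epidermal cells came from mice aged 47 weeks, labelled ColXIV KO or ColXIV WT, and were taken at hours 0, 4, 8, 12, 16 and 20 of Zeitgeber time (ZT, counted from lights on). The labels give 4 biological replicates in each of the 12 groups of label and time, and they name no Cre, transgene, strain or agent. Each library of poly(A) RNA held 35.6 to 43.7 M counts, with a median of 40.7 M over the 48 libraries.

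The label was checked first on Col14a1, the collagen XIV chain gene that the labels give as knocked out. It was at 61.3 ± 8.41 CPM (counts scaled to library depth; SD, n = 24) under the KO label, from 45.3 to 80.1 CPM, and at 1.23 ± 0.939 CPM (SD, n = 24) under the WT label, from 0.261 to 4.13 CPM. The gene therefore goes against the labels, and groups are written throughout as libraries labelled KO or labelled WT. In 3 libraries labelled WT (replicates 3 and 4 of ZT4 and replicate 2 of ZT16) the predicted gene Gm5481 was at 9.64 to 14.1 CPM, near the 9.78 to 28.4 CPM of libraries labelled KO, while the other 21 labelled WT held at most 0.216 CPM. Their Col14a1 was at 0.719 to 2.47 CPM, within the range of the other libraries labelled WT, so the 2 genes place these 3 libraries differently, and results that they change are given without them as well. Xist, the RNA of the inactive X chromosome, reached at least 1317 CPM in 24 libraries, and the other 24 held at most 4.25 CPM. The Y chromosome genes Ddx3y, Eif2s3y, Kdm5d and Uty summed to 190 to 245 CPM in the libraries without Xist. In those with Xist they summed to at most 0.347 CPM, so both measures split the libraries into the same 2 sex-linked types. Of the libraries with Xist 15 were labelled WT and 9 KO. Keratinocyte markers summed to between 31061 and 49163 CPM per library, with no marker at 0 in all libraries. Langerhans and dendritic cell markers summed to 117 to 547 CPM, T cell markers to 56.5 to 182 CPM, macrophage and monocyte markers to 12.2 to 47.0 CPM, fibroblast and dermis markers to 38.7 to 344 CPM and neutrophil markers to 0.577 to 5.36 CPM. In such bulk libraries fewer cells of a type and less RNA per cell cannot be told apart.

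Cytokines of the IL-1 family carry alarm signals from barrier cells. IL-1 alpha and IL-1 beta bind the receptor encoded by Il1r1, which recruits the accessory chain encoded by Il1rap and signals through MyD88 and NF-kappaB. Il1rn encodes the receptor antagonist, which occupies that receptor without signalling, and Il1r2 encodes a decoy receptor that binds IL-1 without signalling. Il1rl2 encodes the receptor of the IL-36 cytokines and also pairs with the accessory chain. IL-33 is a nuclear alarmin of epithelial cells that binds the receptor ST2, and IL-18 is released after cleavage by caspase-1. Keratinocytes are known to store IL-1 alpha and IL-1 receptor antagonist.

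On GRCm38 the 3 receptor genes lie side by side on the plus strand of chromosome 1, with Il1r2 at 40084692 to 40125230, Il1r1 at 40222480 to 40316201 and Il1rl2 at 40324589 to 40367555. Il1a (129299609 to 129310186) and Il1b (129364569 to 129371164) are neighbours on the minus strand of chromosome 2, which also carries Il1rn on the plus strand at 24336860 to 24351491. Il18 is on chromosome 9 at 50554700 to 50581841, Il33 on chromosome 19 at 29925113 to 29960718 and Il1rap on chromosome 16 at 26581509 to 26730128, all on the plus strand. The libraries were stranded, per the labels' protocols, but the strand setting of the counting is not given in the sources used here. Genes annotated on the opposite strand overlap Il1a (Gm14023), Il1b (Il1bos), Il18 (Bco2 and Tex12), Il1r2 (Gm16894) and Il1rap (Gm20319). Without that setting, reads of these pairs cannot be told apart, and counts of those 5 members are uncertain to that extent. Predicted genes on the same strand overlap Il1r1 (Gm38070), Il1r2 (Gm37347) and Il1rl2 (Gm17970).

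Promoter windows of RefSeq (GRCm38.p6), which run from 250 bases before to 50 bases after each annotated start, were matched for all 9 members and number 13. The 4 windows printed are those of Il33 and of the first start of Il1rn, the members with a called rhythm, and that of Il1r2, the decoy receptor and the most abundant member per length. They are written 5′ to 3′ on the plus strand, and capitals mark letters found by the motif search. The first Il33 window is chr19:29924863-29925162, the second is chr19:29945540-29945839, the Il1rn window is chr2:24336610-24336909 and the Il1r2 window is chr1:40085843-40086142.
Il33 first start: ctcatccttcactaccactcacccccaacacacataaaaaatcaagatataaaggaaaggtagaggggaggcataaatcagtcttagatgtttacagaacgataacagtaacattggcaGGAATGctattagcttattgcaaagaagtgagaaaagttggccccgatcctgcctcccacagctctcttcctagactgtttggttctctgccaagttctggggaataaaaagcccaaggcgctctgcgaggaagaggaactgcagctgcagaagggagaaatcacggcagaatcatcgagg
Il33 second start: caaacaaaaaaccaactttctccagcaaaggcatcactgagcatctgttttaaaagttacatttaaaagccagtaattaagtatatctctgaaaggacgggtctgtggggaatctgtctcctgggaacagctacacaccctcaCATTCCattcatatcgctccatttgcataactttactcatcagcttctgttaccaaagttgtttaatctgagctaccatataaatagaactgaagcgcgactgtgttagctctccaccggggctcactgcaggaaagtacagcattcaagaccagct
Il1rn first start: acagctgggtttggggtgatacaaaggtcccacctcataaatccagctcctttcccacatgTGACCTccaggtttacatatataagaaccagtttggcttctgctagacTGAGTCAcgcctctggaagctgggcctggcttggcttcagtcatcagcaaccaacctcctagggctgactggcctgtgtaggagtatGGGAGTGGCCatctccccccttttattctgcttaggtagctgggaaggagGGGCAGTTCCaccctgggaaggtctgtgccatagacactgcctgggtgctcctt
Il1r2: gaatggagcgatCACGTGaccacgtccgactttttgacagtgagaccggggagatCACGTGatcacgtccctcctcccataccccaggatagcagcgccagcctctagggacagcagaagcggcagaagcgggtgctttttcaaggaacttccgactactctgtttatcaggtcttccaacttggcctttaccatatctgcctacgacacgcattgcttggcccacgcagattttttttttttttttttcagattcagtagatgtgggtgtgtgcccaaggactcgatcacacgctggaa

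The motifs were searched on both strands. The letters CACGTG are an E-box as bound by the clock factors BMAL1 and CLOCK. They were in 1 of the 13 member windows, that of Il1r2, at -238 and -195 from the start. Of 32851 windows of the same length, 7.15% held them. The Il1r2 window begins at 40085843, inside the gene span given above, and Il1r2 had no called rhythm (adjusted p = 0.193 in edgeR). The letters CATTCC, named for TEAD factors, were in 4 of the 13 member windows, from 3 of 9 members. Both Il33 windows held them, at -131 on the minus strand of the first and at -107 of the second. These letters were in 14.7% of all windows. The loose NF-kappaB pattern, GGG then any 5 bases then CC, was in 5 of the 13 member windows and in 50.8% of all windows. The Il1rn window held it at -54 and -4. It also held TGANTCA, the AP-1 pattern (7.81% of windows), at -141, and AGGTCA, part of a ROR element (16.3% of windows), on the minus strand at -189. A match is a description of the letters and no evidence of binding.

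Per length, the decoy receptor was the most abundant member and the agonists Il1a and Il1b the least. Levels were set against each other as CPM per kilobase of merged exons, over all 48 libraries. Without division by length, Il33 (97.2 CPM) and Il1rn (95.7 CPM) averaged above Il1r2 (94.4 CPM). Merged exons span all annotated transcripts, at 1.91 kb for Il1r2, 2.89 kb for Il33 and 5.54 kb for Il1rn. Which transcripts were expressed was not tested. Il1r2 was at 49.5 ± 9.56 CPM per kb (SD, n = 48) and Il33 at 33.7 ± 9.47 CPM per kb. Il1r2 was above Il33 in 42 of 48 libraries. Il1rn followed at 17.3 ± 2.80 CPM per kb and was below Il33 and above Il1rl2 in all 48 libraries.

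Il1rl2 (10.9 ± 0.854 CPM per kb), Il18 (10.8 ± 4.39) and Il1r1 (10.2 ± 1.16) did not differ beyond their spread. Il1rl2 was above Il18 in 27 of 48 libraries, and Il18 was above Il1r1 in 24 of 48. Below them Il1rap stood at 4.80 ± 0.579 CPM per kb, Il1a at 1.15 ± 0.303 and Il1b at 0.469 ± 0.206. Il1a was above Il1b in 47 of 48 libraries. Counts behind these levels ran from 16 to 80 per library for Il1b and from 50 to 169 for Il1a, against 2503 to 5502 for Il1r2.

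As ratios of CPM per kb, antagonist and decoy levels were above those of their partners in every library. Il1rn over the sum of Il1a and Il1b averaged 11.2 and ranged from 4.65 to 17.5. Il1r2 over Il1r1 averaged 4.92 and ranged from 2.56 to 7.09. This second ratio was 3.67 ± 0.554 (SD, n = 8) at ZT0 and 5.96 ± 1.09 (SD, n = 8) at ZT16. It depends on the merged exon lengths, 1.91 kb for Il1r2 and 6.36 kb for Il1r1. In CPM the 2 genes averaged 94.4 and 65.2.

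**Figure D1:**
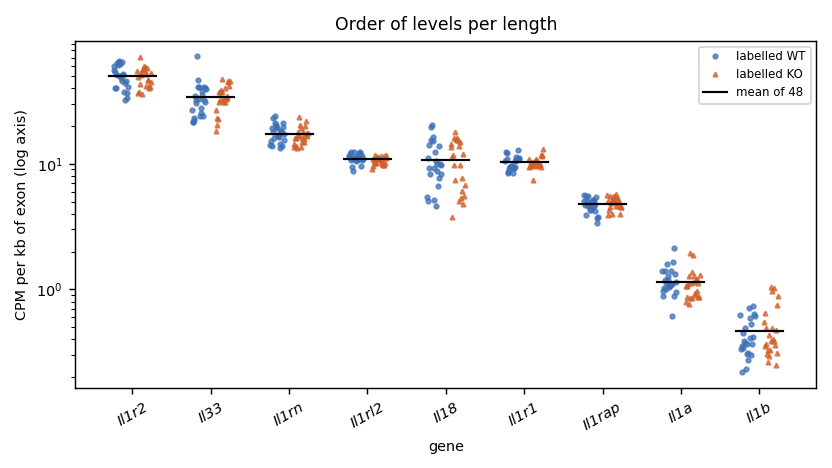
Level of each member in CPM per kilobase of merged exons (log axis), with 1 point per library, circles labelled WT, triangles labelled KO, and a bar at the mean of 48 libraries. Il1r2 (49.5) and Il33 (33.7) stand at the top, Il1rl2, Il18 and Il1r1 lie together near 10.9 to 10.2, and Il1b (0.469) is lowest.

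Members differed in how much they varied among libraries of the same group. The within-group coefficient of variation was 6.57% for Il1rl2 and 8.02% for Il1r1, below the median of all tested genes at 11.2%. It was 11.3% for Il1rap, 13.2% for Il1rn, 17.1% for Il1r2 and 17.4% for Il33. The cytokines Il1a (26.8%), Il18 (34.2%) and Il1b (40.8%) varied most.

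The series asks how the epidermis of the 2 labels compares over the day. Averaged over the 6 times, no member was called different between the labels. In edgeR's quasi-likelihood test with Benjamini-Hochberg adjustment over all genes, 0 of 9 members were called under an adjusted p of 0.05, against 58 of 17068 genes or 0.34%. At an unadjusted p under 0.05 there was 1 of 9 members, Il1rl2, against 6.9% of genes. DESeq2 and limma-voom likewise called 0 of 9. The median log2 fold change (labelled KO over labelled WT) of the members was 0.01, beside -0.002 over all genes tested.

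Among the agonists, Il1a, the alarmin stored in keratinocytes, was at 2.20 ± 0.595 CPM (SD, n = 24) under the KO label and 2.35 ± 0.605 CPM (SD, n = 24) under the WT label. Its log2 fold change was -0.10 ± 0.10 (SE), with a 95% interval of -0.31 to 0.11. Il1b, the inflammasome-processed agonist, was at 0.963 ± 0.474 and 0.826 ± 0.286 CPM, a log2 fold change of 0.19 ± 0.15 with an interval of -0.11 to 0.49. The 2 groups of 24 libraries overlapped widely for both genes. Il18 was at 11.2 ± 4.59 and 11.0 ± 4.55 CPM, with a log2 fold change of 0.02 ± 0.15 and an interval of -0.29 to 0.34.

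Il33 was at 98.1 ± 23.1 CPM under the KO label and 96.3 ± 31.4 CPM under the WT label, a log2 fold change of 0.04 ± 0.06 with an interval of -0.09 to 0.16. The antagonist Il1rn was at 93.5 ± 14.5 and 97.9 ± 16.4 CPM, with -0.07 ± 0.05 and an interval of -0.17 to 0.04. Adjusted p in edgeR was between 0.697 and 0.998 for all 9 members. In percent of the WT label, the interval for Il33 ran from -6.06% to 11.9%.

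For Il1r1, the signalling receptor, the interval of the log2 fold change was -0.05 to 0.08, and for the decoy Il1r2 it was -0.14 to 0.14. For Il1rap, the accessory chain, it was -0.02 to 0.16. Il1rl2 was at 72.6 ± 5.06 CPM under the KO label and 75.7 ± 6.19 CPM under the WT label, a log2 fold change of -0.06 ± 0.03 with an unadjusted p of 0.0409 and an adjusted p of 0.697 in edgeR. With terms for sex-linked expression in the fit, its log2 fold change was -0.03 ± 0.03, with an unadjusted p of 0.227 in edgeR. In the same fit Il1rn was at -0.11 ± 0.05, with an unadjusted p of 0.0474 and an adjusted p of 0.348, against an unadjusted p of 0.205 without these terms.

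**Figure D2:**
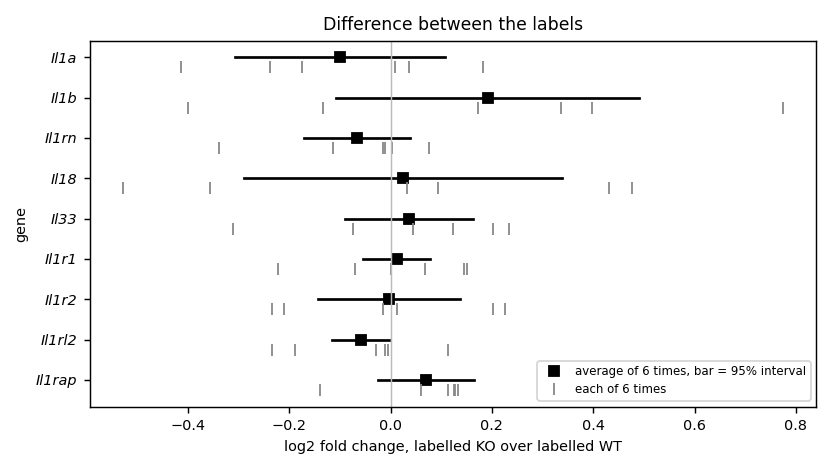
Log2 fold change of each member, libraries labelled KO over those labelled WT. Squares are the average of 6 times with the 95% interval as a bar, and ticks are the single times. The intervals of 8 members include 0, that of Il1rl2 ends at -0.003, and single times lie between -0.53 (Il18 at ZT0) and 0.78 (Il1b at ZT8).

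At single times 0 of the 54 pairs of member and time were called in edgeR. The share of all genes called was 0.0527% at ZT0, 0.0527% for ZT4, 0.0762% for ZT8, 0.0234% for ZT12, 0.129% for ZT16 and 0.0586% for ZT20. At an unadjusted p under 0.05 there were 6 of the 54 pairs, beside 5.94% of all gene and time pairs. DESeq2 and limma-voom called 0 of the 54. The smallest p belonged to Il1rl2 at ZT12, where libraries labelled KO were at 62.2, 65.0, 74.3 and 71.3 CPM and those labelled WT at 76.8, 78.4, 81.2 and 84.5 CPM. The 4 libraries labelled KO all lay below the 4 labelled WT, with a log2 fold change of -0.23 ± 0.07 (SE, n = 4 per group), an unadjusted p of 0.00153 and an adjusted p of 0.704 in edgeR. At ZT20 the same receptor gave -0.19 ± 0.07 with an unadjusted p of 0.00892 and an adjusted p of 0.562. All libraries labelled WT at ZT20 carried Xist, and of those labelled KO only replicate 2 did. Label and Xist can hardly be told apart at that time.

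The 2 groups of 4 libraries did not overlap in 4 of the 54 pairs, where 3.45% of all gene and time pairs did not. Besides Il1rl2 at ZT12 these were Il33 at ZT0 and Il1r1 at ZT4 and ZT8. At ZT0 replicates 2, 3 and 4 labelled WT carried Xist, and of the libraries labelled KO only replicate 2 did. At ZT4 Il1r1 was at 66.0, 65.5, 67.1 and 69.9 CPM in libraries labelled KO and at 59.8, 61.4, 59.4 and 61.1 CPM in those labelled WT. At ZT8 it was at 61.4, 66.4, 66.5 and 61.6 CPM in the former and at 53.2, 58.9, 59.3 and 60.2 CPM in the latter.

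At ZT12 the order for Il1r1 was the other way, with 59.7, 69.6, 60.9 and 61.3 CPM in libraries labelled KO and 66.8, 79.0, 77.6 and 70.0 CPM in those labelled WT. These overlapped, with a log2 fold change of -0.22 ± 0.08, an unadjusted p of 0.00803 and an adjusted p of 0.777 in edgeR. The test that the 6 label differences of a gene are equal gave an unadjusted p of 0.0159 for Il1r1 and 0.00997 for Il1rl2, the adjacent gene, with adjusted p of 0.677 and 0.662 in edgeR. It called 0 of 9 members and 0 of all genes (0.0%), against 2 members and 6.1% of genes at an unadjusted p under 0.05. DESeq2 called 0 of the members and 26 of all genes.

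More members were called for time of day than for label. The edgeR test that the 6 time means are equal, over both labels, called 6 of 9 members, against 45.0% of all genes. Adjusted p was 2.08e-08 for Il33, 9.52e-05 for Il1r1, 0.00165 for Il1rn, 0.017 for Il18, 0.0177 for Il1r2 and 0.05, below the threshold before rounding, for Il1b. It was 0.107 for Il1rap, 0.296 for Il1rl2 and 0.377 for Il1a, which were not called. The median amplitude of the members, the height of a fitted 24 h curve above its mean on the log2 scale, was 0.13, beside 0.08 over all genes tested.

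Il33 was high at the start of the light phase and low at the start of the dark phase. At ZT0 the libraries labelled KO were at 129, 132, 121 and 130 CPM and those labelled WT at 117, 115, 88.7 and 114 CPM. At ZT4 the libraries labelled KO were at 107, 112, 107 and 137 CPM and those labelled WT at 206, 135, 117 and 117 CPM. All of these lay above every library of ZT12, and the highest, replicate 1 labelled WT at ZT4, stood well above the other 15. The label difference of Il33 at ZT4 had a log2 fold change of -0.31 ± 0.15 (adjusted p = 0.816 in edgeR). Without the libraries labelled WT that carry Gm5481, replicates 3 and 4 at ZT4, it was -0.56 ± 0.17 (adjusted p = 0.149 in edgeR). That left replicates 1 and 2 labelled WT, at 206 and 135 CPM, so the larger difference rests in part on the highest library.

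By ZT8 Il33 was at 93.4, 92.9, 89.0 and 89.2 CPM in libraries labelled KO and at 93.7, 69.6, 72.7 and 80.8 CPM in those labelled WT. At ZT12 the values were 76.8, 52.6, 59.1 and 66.6 CPM under the KO label and 77.7, 61.9, 61.9 and 67.2 CPM under the WT label. This was the lowest time under both labels, and the groups overlapped there.

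In the later dark phase the means of Il33, 87.3 CPM at ZT16 and 97.2 CPM at ZT20, lay between those of ZT12 (65.5 CPM) and ZT0 (118 CPM). The ranges of ZT16 and ZT20 overlapped those of both ZT12 and ZT0. At ZT16 Il33 was at 65.8, 107, 89.3 and 92.3 CPM in libraries labelled KO and at 64.7, 99.2, 87.4 and 92.6 CPM in those labelled WT. At ZT20 it was at 116, 94.1, 99.1 and 96.4 CPM in the former and at 102, 110, 68.7 and 92.2 CPM in the latter. The labels overlapped at both times.

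Over both labels Il33 averaged 130 ± 32.8 CPM (SD, n = 8) at ZT4 and 65.5 ± 8.58 CPM (SD, n = 8) at ZT12, a ratio of 1.98. The 8 libraries of ZT4 (107 to 206 CPM) did not overlap the 8 of ZT12 (52.6 to 77.7 CPM). Il33 was the only member whose highest and lowest times did not overlap, which was so for 12.5% of all genes. The fit of a cosine with a period of 24 h gave an amplitude of 0.42 ± 0.04 (jackknife SE), a peak at ZT 0.999 ± 0.384 h and a 1.80-fold change from trough to peak. The adjusted p of this rhythm was 7.92e-08 in edgeR.

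Il33 had an amplitude of 0.43 and a peak at 1.41 h in libraries labelled WT and of 0.42 and 0.585 h in those labelled KO. The difference in rhythm between labels had an unadjusted p of 0.676 and an adjusted p of 1.00 in edgeR. Of all genes, 2.14% were called rhythmic with an amplitude at least that of Il33. Leaving out each library in turn kept the amplitude between 0.39 and 0.45 and the adjusted p at 3.02e-07 or below in edgeR.

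The rhythm of Il33 was called in both sex-linked types. Among the 24 libraries with Xist the amplitude was 0.48 (adjusted p = 5.42e-04 in edgeR), and among the other 24 it was 0.43 (9.77e-05). The fitted peak was at 2.23 h in the former and at 23.8 h in the latter. Fibroblast and dermis markers summed to 66.7 ± 31.1 CPM at ZT4 and 51.2 ± 16.5 CPM at ZT12 (SD, n = 8 each), and Langerhans and dendritic cell markers to 325 ± 67.7 and 348 ± 85.8 CPM. With a term for the dermal markers the amplitude was 0.42, and with a term for the Langerhans and dendritic cell markers it was 0.43.

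**Figure D3:**
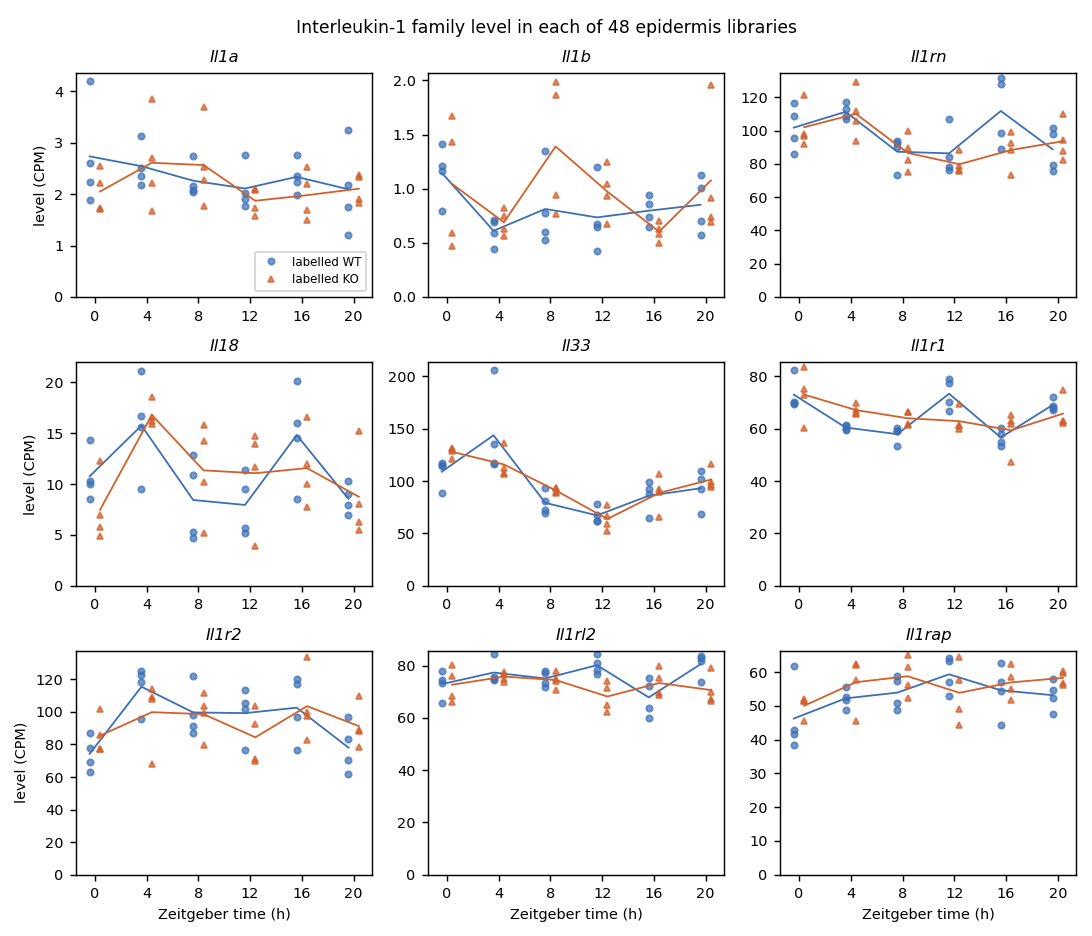
Level of each member in CPM (vertical axis from 0) against Zeitgeber time in hours, with 1 point per library, circles labelled WT, triangles labelled KO, and lines through the mean of the 4 libraries of a group. Il33 is lowest at ZT12 (52.6 to 77.7 CPM) and highest at ZT4 (107 to 206 CPM), while Il1rl2 stays between 60.1 and 84.5 CPM at all times.

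Il1rn, the receptor antagonist, was also highest at ZT4 and lowest at ZT12. At ZT4 it was at 129, 93.6, 112 and 106 CPM in libraries labelled KO and at 117, 109, 113 and 107 CPM in those labelled WT. At ZT12 it was at 75.9, 78.9, 88.3 and 76.2 CPM in the former and at 78.1, 84.0, 76.4 and 107 CPM in the latter. A single library of ZT12, replicate 4 labelled WT, reached into the range of ZT4.

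The means of Il1rn were 111 ± 10.2 CPM at ZT4 and 83.1 ± 10.6 CPM at ZT12 (SD, n = 8 each), a ratio of 1.33. Its rhythm had an amplitude of 0.14 ± 0.03 (jackknife SE), a peak at 0.647 ± 0.902 h and a 1.21-fold change from trough to peak, and the test gave 0.0335 as its adjusted p in edgeR. That call depended on single libraries. Leaving out KO-labelled replicate 1 or 4 of ZT12 or replicate 1 of ZT0, or WT-labelled replicate 1, 2 or 3 of ZT12 or replicate 1 of ZT0, ended it with adjusted p of 0.0509 to 0.0644 in edgeR. Neither sex-linked type alone gave a call, with adjusted p of 0.0647 and 0.112 in edgeR. With terms for sex-linked expression in the fit of all 48 libraries, the rhythm was called (adjusted p = 0.0155 in edgeR).

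At ZT16 Il1rn was at 88.6, 73.6, 98.9 and 92.5 CPM in libraries labelled KO and at 98.5, 128, 89.3 and 132 CPM in those labelled WT. The groups overlapped, and the log2 fold change was -0.34 ± 0.13 with an unadjusted p of 0.0108 and an adjusted p of 0.355 in edgeR. Without the 3 libraries labelled WT that carry Gm5481, of which replicate 2 is the one at ZT16, it was -0.27 ± 0.14 with an unadjusted p of 0.0581. At the same time Langerhans and dendritic cell markers summed to 308 ± 87.5 CPM under the KO label and to 371 ± 140 CPM under the WT label (SD, n = 4 each), and 0 of their 8 genes had a positive log2 fold change (median -0.31). Fibroblast and dermis markers summed to 61.8 ± 26.6 and 141 ± 138 CPM (0 of 8 positive, median -1.95), and markers of the anagen hair shaft and inner root sheath to 50.3 ± 16.8 and 151 ± 196 CPM (0 of 7 positive, median -2.04). None of these marker genes was called at ZT16. The log2 fold change of Il1rn was -0.32 ± 0.13 with a term for the dermal markers and -0.40 ± 0.11 with a term for the Langerhans and dendritic cell markers, and the part of the hair markers was not tested.

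Together with Il33, Il1rn made 2 of 9 members called rhythmic, against 26.6% of all genes, so the count does not set the family apart. The other 7 members had adjusted p for rhythm of 0.125 to 0.824 in edgeR. For Il1r1 the rhythm was called without WT-labelled replicate 2 (adjusted p of 0.0243) or replicate 3 (0.0454) of ZT12. For Il1rap it was called without WT-labelled replicate 1 of ZT0 (adjusted p of 0.0437 in edgeR) and with terms for sex-linked expression (0.0442). No member was called for a difference in rhythm between the labels (0 of 9 called, and 0.0% of genes; at an unadjusted p under 0.05, 0 of 9 and 2.31%). DESeq2 and limma-voom called 0 of 9 as well.

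**Figure D4:**
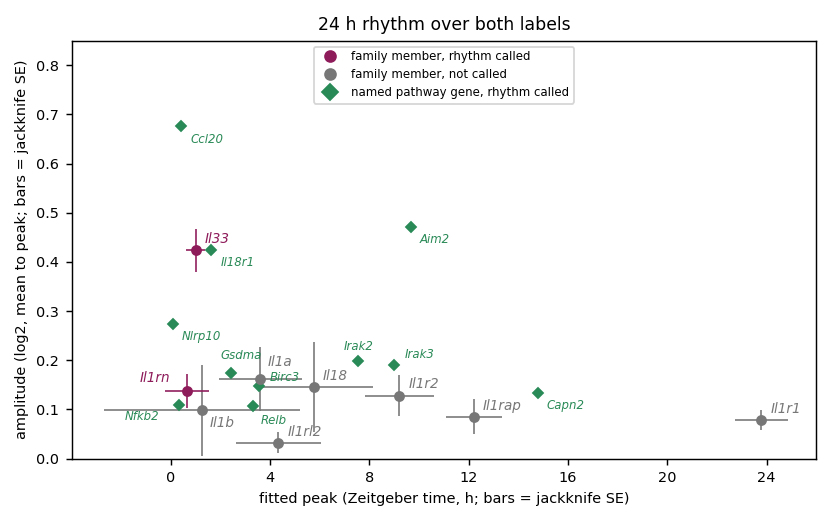
Fitted amplitude (log2, mean to peak) against fitted peak in hours of Zeitgeber time, over both labels. Circles are the 9 members with jackknife standard errors as bars, dark where the rhythm was called, and diamonds are the named pathway genes with a called rhythm. Il33 (0.42 at 0.999 h) lies beside Il18r1 (0.43 at 1.63 h), and Il1rn (0.14 at 0.647 h) peaks close to them at a smaller amplitude.

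Il18 was highest at ZT4, where libraries labelled KO were at 18.5, 16.2, 15.8 and 16.6 CPM and those labelled WT at 21.1, 16.7, 15.6 and 9.54 CPM. Its mean there was 16.3 ± 3.27 CPM (SD, n = 8), against 8.64 ± 3.06 CPM (SD, n = 8; 5.50 to 15.2 CPM) at ZT20, a ratio of 1.88. The ranges of ZT4 and ZT20 overlapped. The next highest mean was at ZT16, with 13.2 ± 4.36 CPM (SD, n = 8), and the rhythm had an adjusted p of 0.654 in edgeR.

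Il1b was low throughout. It averaged 0.650 ± 0.119 CPM (SD, n = 8) at ZT4 and 1.10 ± 0.568 CPM (SD, n = 8) at ZT8, where its libraries ran from 0.523 to 1.99 CPM. At ZT8 libraries labelled KO were at 1.99, 1.86, 0.943 and 0.768 CPM and those labelled WT at 0.598, 0.523, 1.35 and 0.777 CPM, with 2 of the 4 labelled KO above all labelled WT. The log2 fold change there was 0.78 ± 0.36, with an unadjusted p of 0.0351 and an adjusted p of 1.00 in edgeR. The call for time ended in 33 of the 48 fits that left out a library, with adjusted p between 0.0197 and 0.0891 over all 48, and in limma-voom (0.143). It held in DESeq2 (0.0314), and in edgeR with the dermal term (0.0406) and with the Langerhans and dendritic cell term (9.74e-04). With the latter term the averaged label difference of Il1b was 0.26 ± 0.12. Its unadjusted p was 0.0390 and its adjusted p 0.667 in edgeR.

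Il1a ranged from 1.2 to 4.21 CPM, with means of 1.99 ± 0.360 CPM at ZT12 and 2.58 ± 0.664 CPM at ZT4 (SD, n = 8 each). These ranges overlapped.

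Among the receptors, Il1r1 was highest at ZT0 and lowest at ZT16. At ZT0 it averaged 73.0 ± 7.54 CPM (SD, n = 8; 60.3 to 83.6 CPM) and at ZT16 58.0 ± 5.87 CPM (SD, n = 8; 47.3 to 65.2 CPM), a ratio of 1.26 with overlapping ranges. The decoy Il1r2 was lowest at ZT0, at 79.9 ± 11.8 CPM (63.3 to 102 CPM), and highest at ZT4, at 108 ± 18.5 CPM (68.1 to 125 CPM). Within sex-linked types the time test called Il1r1 in libraries without Xist (adjusted p = 0.0307 in edgeR) and not in those with it (0.0676), and Il1r2 in neither (0.114 and 0.383). With terms for sex-linked expression in the fit of all 48 libraries, both genes were called for time (adjusted p of 9.99e-05 and 0.0262 in edgeR).

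Il1rl2, the IL-36 receptor, had the smallest ratio between times, from 70.6 ± 6.44 CPM at ZT16 to 76.6 ± 3.43 CPM at ZT4, or 1.08. Il1rap was at 48.1 ± 7.46 CPM at ZT0 and between 54.6 and 56.6 CPM at the other 5 times. The time test called Il1rap without replicate 1 labelled WT of ZT0 (adjusted p = 0.00406 in edgeR). At 61.8 CPM that library lay above the other 3 of its group, which were at 38.5, 41.6 and 43.0 CPM. It was also the only library of its group without Xist. With terms for sex-linked expression Il1rap was called for time (adjusted p = 0.00709 in edgeR) and rhythm (0.0442).

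Levels by sex-linked type are given as a description, with no test, since the type was uneven over the labels. In libraries with Xist Il1r2 was at 86.0 ± 17.9 CPM and in the others at 103 ± 14.7 CPM (SD, n = 24 each). Il1rap was at 51.0 and 58.0 CPM, Il1rn at 90.6 and 100.8 CPM and Il18 at 10.1 and 12.1 CPM, in the same order. The ranges of the types overlapped for these 4 genes. With terms for sex-linked expression, the time call also held for Il33 (adjusted p = 1.72e-08 in edgeR), Il1rn (0.00186) and Il18 (0.0172). That of Il1b ended (0.0779). The part of sex-linked type in the differences between times was not tested beyond these fits and those within each type. Of the 8 libraries of a time, those with Xist numbered 4 (ZT0 and ZT8), 3 (ZT4 and ZT16) or 5 (ZT12 and ZT20).

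Of the other ligands and antagonists of the family, all 6 listed genes were tested and none was called for label, beside 0.34% of all genes. At an unadjusted p under 0.05 there were also 0 of 6, beside 6.9% of all genes. Il36rn, the IL-36 receptor antagonist, was the most abundant at 42.6 CPM, with a log2 fold change of 0.05 ± 0.08 between the labels. It was the 1 gene of the 6 called for time (adjusted p = 0.0279 in edgeR), beside 45.0% of all genes. It went from 34.2 CPM at ZT12 to 50.9 CPM at ZT4. Without replicate 3 of ZT12 of either label it was no longer called, with adjusted p of 0.0565 (KO) and 0.0583 (WT) in edgeR. Il36g, an IL-36 agonist of epithelial cells, was at 7.12 CPM, Il18bp, the IL-18 binding protein, at 2.71 CPM, and Il36a and Il36b were below 1 CPM.

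Of 6 further receptors 4 passed the filter. For label 0 of 4 were called, beside 0.34% of all genes, and 0 of 4 at an unadjusted p under 0.05, beside 6.9%. Il18r1, the ligand-binding chain of the IL-18 receptor, averaged 23.9 CPM over the libraries of ZT0, 23.97 CPM over those of ZT4 and 18.1 CPM over those of ZT8. In the dark phase it averaged 13.9 CPM (ZT12), 14.9 CPM (ZT16) and 19.1 CPM (ZT20). Its amplitude was 0.43 with a peak at 1.63 h and an adjusted p in edgeR of 8.41e-15. This gene was the 1 of 4 called for time, beside 45.0% of all genes, and for rhythm, beside 26.6%. Il1rl1, which encodes ST2, the receptor of IL-33, was at 0.138 CPM and at most 0.339 CPM in any library. Il1rapl1 and Il1rapl2, accessory chain relatives, had no read in any library.

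In the signalling list all 20 genes were tested and none was called for label, beside 0.34% of all genes. At an unadjusted p under 0.05 there were 2 of 20, beside 6.9%. Tollip, an adaptor that restrains IL-1 receptor signalling, was the most abundant at 268 CPM, with a log2 fold change of 0.07 ± 0.04. For time 13 of 20 were called, beside 45.0% of all genes, and for rhythm 8 of 20, beside 26.6%. Irak2, a kinase-like partner of MyD88, was highest at ZT8 (31.2 CPM) and lowest at ZT0 (22.9 CPM), and Irak3, an inhibitor of the same step, went from 13.5 CPM at ZT20 to 17.6 CPM at ZT8. Their adjusted p for rhythm was 1.57e-05 and 6.37e-05 in edgeR, with peaks at 7.53 and 8.98 h.

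Nfkbia, the NF-kappaB inhibitor that NF-kappaB itself induces, was at 188 CPM at ZT4 and 330 CPM at ZT12, with an adjusted p for time of 9.34e-05 in edgeR and no call for rhythm. Nfkb2 and Relb, the subunits of the alternative NF-kappaB dimer, had called rhythms with amplitudes of 0.11 each and peaks at 0.335 and 3.33 h. The call of Relb ended without replicate 4 labelled WT of ZT4 (adjusted p = 0.0546 in edgeR).

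Of 17 genes of cytokine maturation and release 14 passed the filter. None of these was called for label, beside 0.34% of all genes, with 1 at an unadjusted p under 0.05, beside 6.9%. Capn1, a calpain, was the most abundant at 398 CPM with a log2 fold change of 0.004 ± 0.03. For time 6 of 14 were called, beside 45.0% of all genes, and for rhythm 4 of 14, beside 26.6%, both close to the share of all genes. Aim2, a DNA sensor of inflammasomes, was at 2.82 CPM at ZT12 and 1.54 CPM at ZT20, with an amplitude of 0.47 and a peak at 9.66 h. Nlrp10, which is abundant in epidermis, was at 103 CPM at ZT4 and 61.2 CPM at ZT12, with an amplitude of 0.27 and a peak at 0.0730 h.

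Nlrp1b, the inflammasome sensor, was called for time only, from 10.1 CPM at ZT16 to 17.4 CPM at ZT12. Gsdma, a pore-forming gasdermin of the epidermis, was at 46.6 CPM at ZT12 and 63.2 CPM at ZT4, and its rhythm had an amplitude of 0.17 and a peak at 2.44 h. The rhythm of Capn2, the calpain that processes IL-1 alpha, peaked at 14.8 h with an amplitude of 0.13, and its call ended without replicate 4 labelled KO of ZT16 (adjusted p = 0.0519 in edgeR). Casp1, the protease of IL-1 beta and IL-18, was at 36.0 CPM, with no call for label or time.

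Among 22 genes that IL-1 and NF-kappaB are known to induce, 18 passed the filter. The 1 called for label, beside 0.34% of all genes, was S100a8, a calprotectin subunit, at 0.183 CPM under the KO label and 0.593 CPM under the WT label, with a log2 fold change of -1.52 ± 0.29 (adjusted p = 0.00298 in edgeR). Its level ranged from 0 to 2.19 CPM among the libraries. Its partner S100a9 was not called (0.17, adjusted p = 0.949 in edgeR). At an unadjusted p under 0.05 there were 3 of 18 genes, beside 6.9% of all genes. The averaged log2 fold change was positive in 15 of the 18, with a median of 0.12. For time 11 of 18 were called, beside 45.0% of all genes, and for rhythm 2 of 18, beside 26.6%.

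Ccl20, a chemokine of epithelial cells, was at 1.81 CPM at ZT0 and 0.774 CPM at ZT12, with an amplitude of 0.68, a peak at 0.427 h and an adjusted p for rhythm of 2.86e-08 in edgeR. Birc3, an inhibitor of apoptosis, had an amplitude of 0.15 and a peak at 3.56 h. Ptgs2, the inducible cyclooxygenase, was low at ZT4 (8.87 CPM) and ZT16 (13.1 CPM), and stood at 28.1 CPM (ZT0), 18.7 CPM (ZT8), 34.7 CPM (ZT12) and 24.1 CPM (ZT20) otherwise. Its time test was called (adjusted p = 8.88e-06 in edgeR) and its rhythm was not. Il6 and Cxcl2 were called for time at mean levels of 0.0902 and 0.228 CPM.

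Genes whose pattern was most like each member were ranked by Pearson's r of log2 CPM over the 48 libraries among 13408 named genes of at least 1 CPM, as a description in which libraries share depth, time and sex-linked type. For Il33 they were Ckap5 (r = 0.83), Nusap1 (0.81) and Hmmr (0.80), which encode proteins of the mitotic spindle. For Il1rn they were S100a10 (0.84), Capzb (0.81) and Ssr1 (0.80). Those of Il1a were Cpa4 (0.68), Lce1l (0.64) and Lce1b (0.63), the last pair late cornified envelope genes.

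For Il18 the nearest genes were Fmo2 (0.72), Lipk (0.70) and Crct1 (0.69), and for Il1r1 they were Tsc22d1 (0.76), Wsb1 (0.74) and Zfand5 (0.73). The decoy Il1r2 was nearest to Dhx15 (0.74), Hddc2 (0.73) and Mettl7a1 (0.72), and Il1rl2 to Zfp871 (0.66), 9230102O04Rik (0.66) and 4930412O13Rik (0.65). Il1rap was nearest to Gm20319 (0.89), the predicted gene that overlaps it on the opposite strand, then to Map2k6 (0.77) and Tmem65 (0.76). Il1b, below 1 CPM, was not ranked.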

How the data were processed

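Bulk RNA-seq of epidermal cells gave 48 libraries. The authors deposited raw counts per gene ID, with no normalisation; GRCm38 (mm10), featureCounts, STAR 2.7.10a and Trim Galore are named in the submitters' processing notes. Neither annotation nor strand setting is stated there. Symbols came from a RefSeq gene table (25275 IDs) and GENCODE (18), while 1886 IDs with 4.65% of counts stayed unnamed. Of all IDs 3698 had no read.

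Counts were scaled by TMM in edgeR 4.0.16 (R 4.3.3; factors 0.919 to 1.07), filtered by filterByExpr with the 12 groups, and fitted with glmQLFit (robust) on all 48 libraries. Contrasts were tested by glmQLFTest, with Benjamini-Hochberg adjustment over 17068 genes and calls under 0.05. A second model held label and, within each label, a cosine and sine of 24 h. Standard errors of amplitude and peak came from 48 fits that each left out 1 library. Levels per length used GENCODE merged exons, and correlations used log2 CPM with a prior count of 2. The labels call the replicates biological without naming animals, so p measures the spread between these libraries.

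The members and lists were chosen with earlier results of these data known. Named were the 9 members, Col14a1, up to 4 called genes per pathway list and comparison with the largest effect or else the most abundant, and the 3 genes most like each member of at least 1 CPM. Other genes named as examples were picked with their values in view. As alternatives, the fits used RLE size factors, other filters (1 read, or 1 CPM in at least 24 libraries), DESeq2 1.42.0, limma-voom (limma 3.58.1), a replicate block, terms for sex-linked expression and for dermal and Langerhans cell markers, and each library left out. The fits were tested on simulated data.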

Additional observations from a re-analysis of the deposited data

Results flagged for a closer look

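In 8 of 108 groups of 4 libraries a member's highest or lowest library stood farther from its nearest neighbour than Dixon's 95% critical value allows. Chance flags about 1 group in 20. Il33 had 88.7 CPM in replicate 3 labelled WT at ZT0, below the other 3 of its group, and libraries labelled KO did not overlap that group. Il1rn had 73.2 CPM in replicate 4 labelled WT at ZT8. Il1r1 had 69.6 CPM in replicate 2 labelled KO at ZT12, 74.9 CPM in replicate 4 labelled KO at ZT20 and 82.5 CPM in replicate 2 labelled WT at ZT0, each above the rest of its group. Il1r2 had 68.1 CPM in replicate 1 labelled KO at ZT4, below the rest. Il1rl2 had 84.5 CPM in replicate 1 labelled WT at ZT4, above the rest, and Il1rap 45.5 CPM in replicate 2 labelled KO at ZT0, below the rest.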

How the results depend on the processing

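Counts of members called for label, time, rhythm and their differences kept within 1.5 times under the 10 alternatives other than leaving out a library. The exception on leaving out libraries was rhythm, called in 1 to 2 members over 48 fits. It was 1 without replicate 1 or 4 labelled KO of ZT12, replicate 1 labelled KO of ZT0 or replicate 1 labelled WT of ZT12. The averaged log2 fold changes of 3 members, all near 0, turned sign. For Il18 it was -0.00346 with limma-voom, -0.00852 with the replicate block and -0.0967 with terms for sex-linked expression. It was -0.0513 without 3 libraries labelled WT (replicates 3 and 4 of ZT4, replicate 2 of ZT16), an alternative chosen after seeing the data. In these the predicted gene Gm5481 was at least at 1 CPM, near its level in libraries labelled KO. Their Col14a1 lay within the range of the other libraries labelled WT, so the 2 genes place them differently. Il1r1 was at -0.00474 with the dermal term and Il1r2 at 0.00865 with the Langerhans cell term. Over 48 fits that left out a library, Il18 ranged from -0.0434 to 0.0732 and Il1r2 from -0.0265 to 0.0210. The call of Il1b for time ended with no filter (adjusted p = 0.0614), in limma-voom (0.143), with the replicate block (0.0534), with sex-linked terms (0.0779) and without those 3 libraries (0.119); it was not tested under the filter of 1 CPM in 24 libraries. Il36rn lost its time call with the dermal term (0.0533) and without those 3 libraries (0.0571), and Capn2 its rhythm call without them (0.0717). The causes were not tested.

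Over all genes, the averaged count of 58 became 130 with sex-linked terms. At ZT4 the 9 calls became 4 under the filter of 1 CPM, 24 in DESeq2, 30 with sex-linked terms and 24 without those 3 libraries. At ZT8 13 became 20 in DESeq2. At ZT16 22 became 42 in DESeq2, 121 with sex-linked terms and 11 without those libraries, and at ZT20 10 became 17 in DESeq2 and 5 in limma-voom. Leaving out 1 library moved these counts to 1 to 15 at ZT4, 5 to 15 at ZT8, 5 to 41 at ZT16 and 7 to 18 at ZT20, so the shares of all genes set beside the members at these times depend on single libraries. At ZT16 the count was 5 without replicate 2 labelled KO and, for libraries labelled WT, 12 without replicate 2, 41 without replicate 3 and 10 without replicate 4. At ZT4 it was 15 without replicate 4 labelled WT of ZT16, 14 without replicate 3 labelled WT of ZT8 and 1 to 5 without any of 7 libraries of ZT4, all but replicate 3 labelled WT. At ZT8 it was 5 to 8 without any of its libraries other than replicate 2 labelled WT, and at ZT20 18 without replicate 2 labelled KO. The difference between times called 26 in DESeq2, and the difference in rhythm 1 with no filter. Deviations of libraries with the same replicate number had a median r of 0.04 over 264 pairs, 112 of them above 0.1. Over 792 pairs of other numbers the median r was -0.02, with 272 above 0.1. These replicate numbers come from the sample titles and differ from the numbers in some library names. Pairing by library name was not tested. With the block no member's call changed other than that of Il1b. Il1b held 16 to 80 counts per library, which limits its precision.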
